A study of Mus musculus with 15 samples.

Results

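The genes described here carry sugar through the mammary epithelial cell (MEC). The list held 39 mouse genes of glucose entry, glycolysis and lactate handling, pyruvate entry into mitochondria, the pentose phosphate pathway, the making of activated sugars and glycogen, and the first steps of citrate metabolism. A gene was followed through probe sets annotated to it alone, and where several existed the brightest on average, by mean log2 intensity, stood for the gene. This gave 35 of the 39 genes, out of 18193 genes with such a probe set, and all 35 passed the brightness filter and were tested, among 12143 genes in all. Gpi1, Eno1, G6pdx and Galk1 had no probe set of their own and were not analysed here.

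Expression was measured on 15 Affymetrix arrays, with 3 arrays for each of 5 sorted MEC populations of adult female mice labelled C57BL/6. All were depleted of lineage-positive cells (Lin-). A basal gate of CD24+CD29hi gave the mammary stem cell-enriched fraction (MaSC). A gate of CD24hiCD29+ was divided by CD61 into luminal progenitors with it (LP) and mature luminal cells lacking it (ML). The series' design text gives this luminal gate as CD29+, and the study's methods write it CD24+CD29lo. These populations came from wildtype virgins, 3 mice giving 3 cell suspensions that were each sorted. Wap-Cre;R26Y females gave Lin-YFP+ cells, which at midgestation are called alveolar luminal cells (AL) and in virgins alveolar luminal stem/progenitor cells (ALP). In these mice Cre is made from the promoter of whey acidic protein, a milk protein, and switches on a yellow fluorescent reporter (R26Y) that stays on in all descendants, so the mark records past as well as present Cre activity. Whether the 3 AL or 3 ALP arrays stand for different animals is not in the labels. The p-values then cover no more than the spread among these arrays, which may be technical. AL differed from MaSC, LP and ML in genotype and in gate as well as in pregnancy, and ALP shared genotype and gate with AL.

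Glycolysis splits glucose into pyruvate, which is reduced to lactate or oxidised in mitochondria after passing pyruvate dehydrogenase. The pentose phosphate pathway branches off near the top and makes NADPH, used in fatty acid synthesis, and ribose for nucleotides. In the alveolar cell of pregnancy and lactation glucose also supplies lactose, the main sugar of milk, through UDP-glucose and UDP-galactose, and citrate from mitochondria supplies carbon for milk fat. Several steps are served by isozymes, closely related proteins from separate genes that differ in regulation.

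Within a population, arrays correlated across genes at 0.943 to 0.973 in MaSC, 0.976 to 0.986 in LP, 0.979 to 0.983 in ML, 0.984 to 0.989 in AL and 0.901 to 0.9699 in ALP. ALP replicate 3 stood apart. Its summed intensity over 6 leukocyte markers was 42778, against 1791 and 2272 on the other ALP arrays and at most 3914 elsewhere, and Ptprc, the pan-leukocyte antigen, read 2795 on it and at most 93.6 on every other array. The 6 basal markers summed to 57237 to 62003 in MaSC, 16693 to 20287 in AL, 6095 to 26671 in ALP and at most 3105 in LP and ML. Fibroblast markers summed to 25819 to 34896 in AL, 25197 to 39609 in LP and 35882 to 66267 in ALP, against 1629 to 7303 in ML and MaSC. The adipocyte list, carried by Fabp4, summed to 4690 to 5270 in AL and 6168 to 14214 in ALP against at most 1085 in the other populations, with Adipoq at or below 68.2 on every array but ALP replicate 3. Proliferation markers summed to 19499 to 22250 in AL and to at most 5139 elsewhere, and milk genes to 49460 to 57665 in AL and at most 18483 elsewhere. Outside AL the milk list was carried by Csn3, with population means of 10975 to 17076 there, highest in LP, and 16262 in AL. The other milk genes listed had their highest means in AL. Luminal markers were high on all arrays, at 63482 to 73868 in MaSC and 72419 to 81480 in the others. By the markers of their labels, the 5 luminal progenitor markers summed to 33054 to 36450.2 in LP, 31183 to 34844 in ALP, 26705 to 27473 in AL and at most 18973 in MaSC and ML, so they did not separate LP from ALP. The hormone-sensing list, 4 of 5 measured, summed to 30982 to 33855 in ML, 16377 to 24480.1 in ALP, 8401 to 13106 in LP and 4952 to 6276 in AL. The MaSC arrays spread widely in this list, at 19487, 13961 and 5781 on replicates 1 to 3. Their luminal progenitor markers followed the same order, at 18973, 11223 and 8836. Endothelial markers summed to 580.3 to 735 in AL, 849 to 6712 in ALP and at most 328 elsewhere. The part in the results below of the cells behind these marker sums was not tested, and in sorted bulk RNA a smaller share of expressing cells cannot be told apart from less RNA per cell.

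Values below are the deposited linear intensities, array by array in the order of replicates 1 to 3, differences are fitted on the log2 scale with their standard errors (SE), and p-values are from limma, adjusted by the Benjamini-Hochberg method over all 12143 genes. A gene is said to rise, fall or differ where its adjusted p was under 0.05. Most sugar metabolism genes differed among the 5 populations, as did most genes on the array. By limma's moderated F test 31 of 35 passed at an adjusted p under 0.05, a share close to the 84.7% of all genes tested that did. The distance from the lowest to the highest population mean had a median of 1.96-fold over the 35 genes and 2.03-fold over all genes. Pgk1, Hk1, Idh1 and Gys1 did not pass (adjusted p = 0.33, 0.48, 0.24 and 0.054). AL had the highest mean for 15 of the 35 genes and MaSC the lowest for 15, where over all genes the shares were 25.7% and 30.1%.

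Some genes separated a population from every other array. All 3 AL arrays lay above all 12 others for 9 genes, namely Cs, Ldhb, Pdha1, Pdk1, Pdk2, Pdk4, Pgls, Taldo1 and Tkt, and 12.9% of all genes did the same. All 3 AL arrays lay below the others for Aldoa, Pfkfb4 and Pgm2 (10.8% of all genes). ML arrays lay above all others for Aldoa, Pfkfb4, Pgm2 and Pkm (11.2%) and below them for Ldhb, Pdk3, Pfkp, Slc16a1 and Slc2a1 (12.4%). MaSC arrays lay below all others for Aldoc, Idh2, Pdha1, Pdk1, Pgd, Taldo1 and Tkt (8.06%) and above them for none (9.56%). LP arrays lay above the others for Rpia and Slc2a1 (4.54%) and below them for Pfkl and Pgam1 (1.77%), and ALP arrays did neither for any (0.774% and 0.659%).

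**Figure D1:**
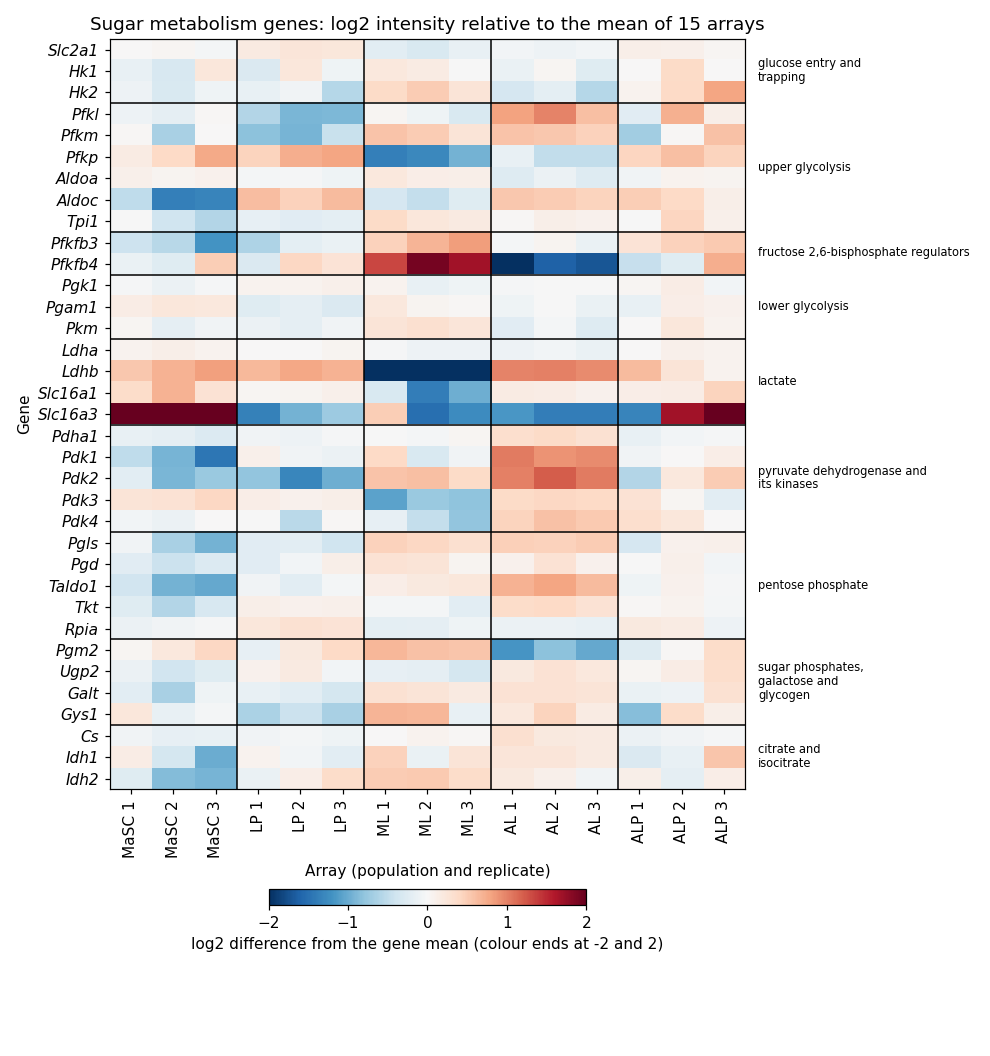
Log2 intensity of the 35 measured genes on each of the 15 arrays, shown as the difference from the gene's own mean over all arrays, with genes in rows grouped by role and arrays in columns grouped by population. Colours end at -2 and 2. The ML arrays stand out as low for Ldhb and high for Pfkfb4, and the AL arrays as high for Pfkl, Pdk1 and Pdk2 and low for Pfkfb4 and Pgm2.

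The 3 genes with the largest rises in AL over LP were Pdk2, Pfkl and Pfkm, and the 250 bases before the outermost RefSeq transcription start of each (GRCm38.p6) are shown because they rose most. RefSeq lists 2 starts for Pdk2, 1 for Pfkl and 4 for Pfkm. The strand given is that of the gene and each sequence is read 5′ to 3′. Capitals mark the letters ACGTG on either strand, the core bound by several sugar- and hypoxia-responsive factors, whose palindrome CACGTG counts once for each strand.
Pdk2, chr11:95041372-95041621, minus strand: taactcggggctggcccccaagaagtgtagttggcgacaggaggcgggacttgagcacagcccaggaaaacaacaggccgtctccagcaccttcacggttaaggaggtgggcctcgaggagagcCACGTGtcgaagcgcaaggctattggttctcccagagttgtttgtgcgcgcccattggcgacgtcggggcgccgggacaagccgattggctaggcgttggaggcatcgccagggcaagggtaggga
Pfkl, chr10:78009808-78010057, minus strand: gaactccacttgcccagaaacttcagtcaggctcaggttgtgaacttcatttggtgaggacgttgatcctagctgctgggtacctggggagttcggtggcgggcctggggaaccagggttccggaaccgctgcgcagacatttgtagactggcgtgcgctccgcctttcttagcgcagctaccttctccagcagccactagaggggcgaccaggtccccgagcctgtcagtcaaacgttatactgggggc
Pfkm, chr15:98092339-98092588, plus strand: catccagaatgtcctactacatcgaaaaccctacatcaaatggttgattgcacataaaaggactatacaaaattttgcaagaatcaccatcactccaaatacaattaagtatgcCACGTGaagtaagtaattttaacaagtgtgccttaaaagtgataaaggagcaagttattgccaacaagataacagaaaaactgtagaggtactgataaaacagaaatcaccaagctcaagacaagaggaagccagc
The printed Pdk2 and Pfkm windows each held 1 CACGTG, while these letters were absent from the Pfkl window. They were also absent from the windows of the other Pdk2 and Pfkm starts, of which 1, for Pfkm, held ACGTG. Of 32851 promoter windows of this length, 16.6% held ACGTG and 6.02% held CACGTG, so a match is a description and no evidence of a bound site.

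Glucose entry and trapping differed modestly. Slc2a1, the most widely expressed glucose transporter, read 12638, 13247 and 13159.9 in LP, 12077, 11952 and 11507 in ALP, 11212, 11439 and 10911 in MaSC, 10757, 10387 and 10738 in AL and 9617, 9048 and 10088 in ML. LP was highest and ML lowest on every array, yet LP exceeded ML only 1.36-fold (log2 difference 0.44 ± 0.06, adjusted p = 0.00023) and AL only 1.22-fold (0.0034 as adjusted p). After centring each array on its median, neither difference passed. Hk2, the inducible hexokinase that traps glucose inside the cell, read 6064, 6584 and 5547 in ML, 3118 to 4396 in MaSC and LP and 3677, 4034 and 3117 in AL, where it was 1.69-fold lower (-0.75 ± 0.18, adjusted p = 0.0045). The ALP arrays spread from 4846 to 8050.3, with the highest on replicate 3. Hk1, the constitutive hexokinase, ranged from 2696 to 4392 with all populations overlapping. A second Hk1 probe set passed for ML above LP, AL and MaSC (log2 differences -0.56, -0.50 and -0.47 as LP, AL or MaSC minus ML, adjusted p = 0.018, 0.027 and 0.036).

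Phosphofructokinase, which commits sugar to glycolysis, showed opposite patterns for its isozymes where LP was set against AL or ML. Pfkl (liver type, chr10:77986947-78009807) read 3099, 3535 and 2702 in AL, 1525, 2919 and 1939 in ALP, 1656, 1574 and 1805 in MaSC, 1834, 1685 and 1447 in ML and 1186, 946 and 953 in LP. Pfkm (muscle type, chr15:98092589-98132447) read 1111, 1084 and 1029 in AL, 1108, 1069 and 891 in ML, 762, 477 and 753 in MaSC, 459.6, 760.1 and 1120.1 in ALP and 422, 392 and 551 in LP. Pfkp (platelet type, chr13:6579874-6649060) instead had its highest mean in LP. It read 4583, 5604 and 5806 in LP, 3771, 4447 and 5701 in MaSC and 4542, 5102 and 4617 in ALP, and 3041, 2405 and 2388 in AL and 1314, 1375 and 1761 in ML. Thus LP was the population with the lowest mean Pfkl and Pfkm and the highest mean Pfkp.

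From LP to AL, Pfkl rose 3.02-fold (log2 difference 1.60 ± 0.20, adjusted p = 9.3e-05) and Pfkm 2.39-fold (1.25 ± 0.28, adjusted p = 0.0036), while Pfkp fell 2.04-fold (-1.03 ± 0.17, adjusted p = 0.00052). All 3 probe sets of Pfkl and all 3 of Pfkp passed in these directions, whereas Pfkm had 1. LP exceeded ML 3.61-fold in Pfkp (1.85 ± 0.17, adjusted p = 1.1e-05). AL exceeded ML in both Pfkl and Pfkp (log2 differences 0.91 and 0.82), so these isozymes did not oppose each other there. Against ALP, AL was lower in Pfkp (-0.87 ± 0.17, adjusted p = 0.0018), but the AL and ALP arrays overlapped for Pfkl, and of its other probe sets 1 passed in the opposite direction at -0.88.

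**Figure D2:**
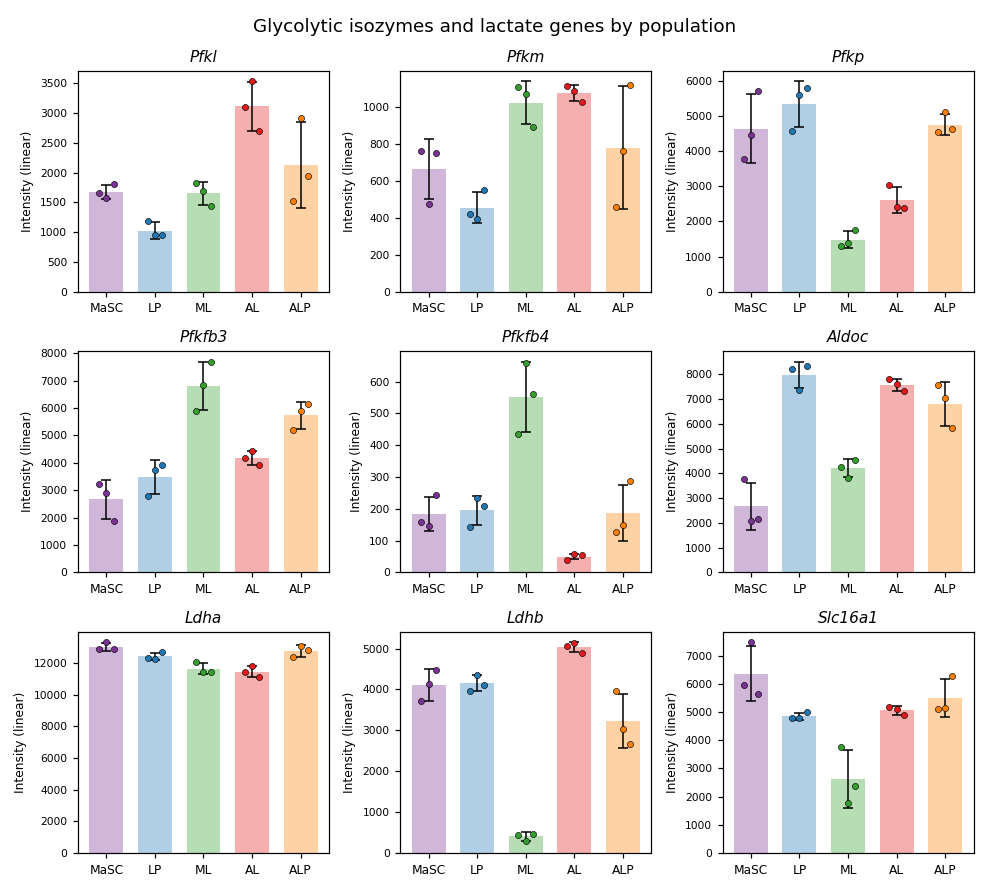
Linear intensity of 9 glycolytic and lactate genes in the 5 populations, with points for the 3 arrays of each, bars for the mean and error bars for ±1 SD, and every vertical axis starting at 0. Pfkl is highest in AL while Pfkp is highest in LP, Pfkfb4 is highest in ML and lowest in AL, and Ldhb is near 400 in ML only while Ldha is nearly level.

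Aldolase and triosephosphate isomerase complete the upper pathway. Aldoc, the brain-type aldolase, read 3756, 2082 and 2154 in MaSC and 8225, 7367 and 8341 in LP, 3.11-fold lower in MaSC (-1.64 ± 0.19, adjusted p = 8.3e-05). ML lay between at 4248, 3829 and 4541, and AL at 7809, 7618 and 7324 was 1.81-fold above ML (0.85 ± 0.19, adjusted p = 0.0027). Aldoa, the main glycolytic aldolase, moved little and the other way: AL read 10569, 11570.2 and 10498 and ML 14622, 13826 and 13589, 1.29-fold lower in AL (-0.37 ± 0.07, adjusted p = 0.00088). Tpi1 ranged from 4760.4 to 9633, with MaSC 1.51-fold below ML (-0.60 ± 0.14, adjusted p = 0.0037).

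The regulators of phosphofructokinase gave some of the widest differences. Pfkfb3 and Pfkfb4 are bifunctional enzymes that make and break fructose-2,6-bisphosphate, the strongest activator of phosphofructokinase. Pfkfb4 (chr9:108988272-109032236) read 436, 658 and 559.8 in ML, 142, 232 and 209.6 in LP, 158, 147 and 244 in MaSC, 126, 148 and 287 in ALP and 39.5, 56.5 and 53 in AL. ML arrays were all above, and AL arrays all below, every other array, and the AL values lay under the array medians of 137 to 209.9. AL was thus 11.1-fold below ML (log2 difference -3.47 ± 0.32, adjusted p = 4.6e-06) and 3.89-fold below LP (-1.96 ± 0.32, adjusted p = 0.00049). The fall from ALP to AL was 3.56-fold (-1.83 ± 0.32, adjusted p = 0.00092). Pfkfb3 was also highest in ML, at 5898, 6828 and 7675, and read 4169, 4437 and 3918 in AL, 2779.7, 3743 and 3921 in LP and 3232, 2909 and 1874 in MaSC. ML exceeded LP 1.96-fold (0.0017 as adjusted p) and MaSC 2.6-fold (0.00013).

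Lower glycolysis was nearly level. Pgk1, the first ATP-yielding step, ranged only from 9220.3 to 11352. Pkm, pyruvate kinase, read 9892, 10303 and 9739 in ML and 7604, 7319 and 7839 in LP, 1.32-fold higher in ML (LP minus ML -0.40 ± 0.09, adjusted p = 0.0031). The AL arrays ranged from 6902 to 8034, and splice forms were not separated here. Pgam1, phosphoglycerate mutase, was lowest in LP at 5652, 5909 and 5467 and highest in MaSC at 7415, 7815 and 7798 (0.44 ± 0.09, adjusted p = 0.0023).

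Lactate dehydrogenase B was low in mature luminal cells alone. Ldhb (chr6:142490249-142507957), whose heart-type subunit favours turning lactate back to pyruvate, read 447, 283 and 470.2 in ML. In AL it read 5075, 5131 and 4903, in LP 3969, 4366 and 4119.7, in MaSC 3706, 4126 and 4488 and in ALP 3952, 3041 and 2675. The brightest ML array was thus far below the dimmest of the other 12, at 2675. LP exceeded ML 10.6-fold (log2 difference 3.41 ± 0.18, adjusted p = 5.0e-07), MaSC exceeded it 10.5-fold, ALP 8.15-fold and AL 12.9-fold (3.69 ± 0.18, adjusted p = 9.0e-08). All 4 probe sets of Ldhb passed, with LP minus ML between 3.36 and 3.49. AL was also 1.58-fold above ALP (0.66 ± 0.18, adjusted p = 0.013), which did not pass by the methods' t-test after Benjamini-Hochberg adjustment. This is Student's test, which the study's methods name for significance in general and not for the arrays. Its partner Ldha, the muscle-type subunit that makes lactate, ranged from 11141 to 13325 on all arrays.

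The lactate carriers had patterns of their own. Slc16a1, a membrane carrier of lactate and pyruvate, read 3760.3, 1773 and 2357 in ML and 4782 to 7481 on the other 12 arrays. MaSC exceeded ML 2.52-fold (1.33 ± 0.21, adjusted p = 0.00032) and AL exceeded ML 2.02-fold (1.01 ± 0.21, adjusted p = 0.0019), the latter not by the methods' t-test. Slc16a3, the lactate exporter of glycolytic cells, was brightest in MaSC at 593, 616 and 696, against 58.1, 76.9 and 89.4 in LP and 66.5, 56.8 and 57.1 in AL. ML read 208, 52.2 and 62.3 and ALP 59.2, 478 and 904, the latter highest on the array with the leukocyte markers. MaSC exceeded LP 8.6-fold (log2 difference 3.11 ± 0.80, adjusted p = 0.0091) and ML 7.21-fold (2.85 ± 0.80, adjusted p = 0.0089), or a log2 difference of 3.47 without ML replicate 1. All LP arrays and ML replicates 2 and 3 lay well under the array medians, where small intensities limit how exact these folds are.

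Pyruvate dehydrogenase and its kinases had their highest means in AL, the cells of the pregnant gland. Pdha1, the catalytic subunit, read 8698, 8983 and 8487 in AL and 5671 to 7067 on all other arrays, a rise over LP of 1.32-fold (0.41 ± 0.07, adjusted p = 0.00056). A second, dimmer Pdha1 probe set passed with larger log2 differences, at 1.35 over LP, 1.27 over ML, 1.13 over ALP and 1.56 over MaSC. Of the kinases, which phosphorylate and inhibit it, Pdk1, Pdk2 and Pdk4 rose over LP as well, whereas Pdk3 differed by 0.28 (adjusted p = 0.076). Pdk1 read 5731, 5205 and 5358 in AL, 2648, 2809 and 3049.7 in ALP, 3680.2, 2258 and 2659.8 in ML, 3002, 2646 and 2569 in LP and 1968, 1468 and 1021 in MaSC. No AL array overlapped another population, and AL was 1.99-fold above LP (log2 difference 0.99 ± 0.22, adjusted p = 0.0032) and 3.78-fold above MaSC (1.92 ± 0.22, adjusted p = 2.0e-05). Its rise over ALP, 0.94 ± 0.22, adjusted p = 0.0051, did not pass when all its probe sets were averaged.

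Pdk2 (chr11:95026258-95041371) showed the largest rise from LP to AL among the 35 genes. It read 1558, 1805 and 1593 in AL, 1149, 1179.5 and 1009 in ML, 519, 901 and 1109 in ALP, 672, 411 and 465 in MaSC and 451, 316 and 397 in LP. AL exceeded LP 4.3-fold (2.10 ± 0.26, adjusted p = 6.9e-05), MaSC 3.27-fold (1.71 ± 0.26, adjusted p = 0.00016) and ALP 2.05-fold (1.04 ± 0.26, adjusted p = 0.0075), the last not by the methods' t-test. Its level over ML, 0.57, did not pass (adjusted p = 0.080), although the arrays did not overlap. Pdk4, known to rise in fasting and with fat oxidation, read 11704, 12957 and 12339 in AL, 5012 to 10859 in MaSC, ML and ALP and 8576, 5948 and 8779 in LP (0.69 ± 0.17, adjusted p = 0.0069). Pdk3 instead was lowest in ML. It read 397, 498 and 477 there and 716 to 1113 on the other arrays, and LP was 1.98-fold above ML (0.99 ± 0.12, adjusted p = 7.4e-05).

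**Figure D3:**
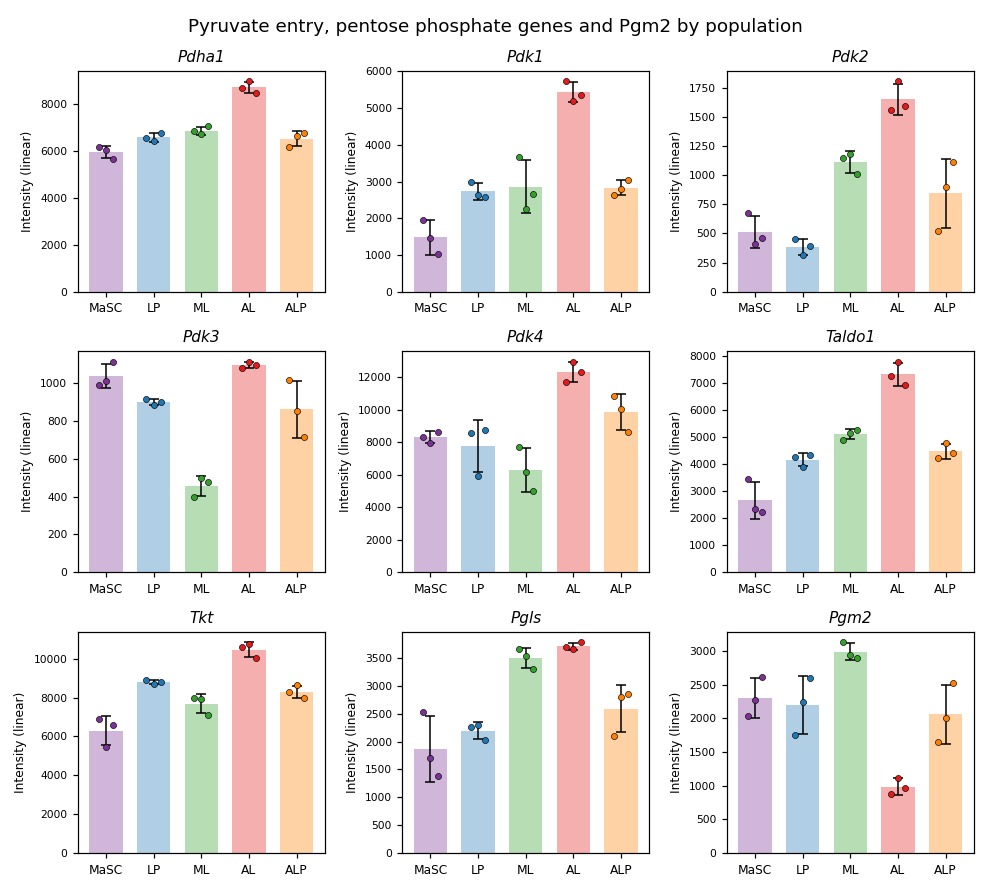
Linear intensity of Pdha1, the 4 pyruvate dehydrogenase kinases, Taldo1, Tkt, Pgls and Pgm2 in the 5 populations, with points for the 3 arrays of each, bars for the mean and error bars for ±1 SD, and every vertical axis starting at 0. AL is highest for all but Pgm2, for which it is lowest, and ML is lowest for Pdk3.

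Of 5 pentose phosphate genes measured, 4 had their lowest mean in MaSC and 3 their highest in AL. Taldo1, transaldolase of the non-oxidative branch, read 7281, 7799.7 and 6944 in AL, 4905, 5158 and 5288 in ML, 4249, 4797 and 4420.4 in ALP, 4267, 3902 and 4359 in LP and 3463, 2343 and 2219 in MaSC. AL was above and MaSC below every other array, and AL exceeded LP 1.76-fold (log2 difference 0.81 ± 0.14, adjusted p = 0.00074), ALP 1.64-fold (0.71 ± 0.14, adjusted p = 0.0021) and MaSC 2.8-fold (1.48 ± 0.14, adjusted p = 6.0e-06). Tkt, transketolase of the same branch, showed the same order at the extremes with 10593, 10764 and 10027 in AL, 7104 to 8895 in LP, ML and ALP and 6887, 5452 and 6566 in MaSC. AL exceeded MaSC 1.67-fold (0.74 ± 0.09, adjusted p = 3.9e-05) and LP exceeded MaSC 1.4-fold (MaSC minus LP -0.49 ± 0.09, adjusted p = 0.0015).

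In the oxidative branch, Pgls, the lactonase that follows the first dehydrogenase, read 3696, 3672 and 3788 in AL, 3666, 3544 and 3313 in ML, 2267, 2302 and 2027 in LP and 2533, 1701 and 1382 in MaSC. AL exceeded LP 1.69-fold (0.76 ± 0.18, adjusted p = 0.0059), while AL and ML differed by 0.09 on the log2 scale (adjusted p = 0.72). Pgd, the dehydrogenase that makes the second NADPH, was 5195, 4501 and 4997 in MaSC and 5196 to 7402 elsewhere. Rpia, which makes ribose phosphate, was the exception with LP highest at 7015, 7402 and 7229.9 and AL at 5550.2, 5520.2 and 5401 (-0.39 ± 0.08, adjusted p = 0.0028). That small difference did not pass after centring each array on its median.

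Among the genes of sugar phosphates and glycogen, Pgm2 was lowest in AL. Pgm2 (chr5:64092919-64128355, Entrez gene 66681) acts mainly on phosphopentoses, and in older usage the symbol also denoted the major phosphoglucomutase, now Pgm1. It read 867, 1114 and 963 in AL, 1648, 2003 and 2525 in ALP, 1753, 2243 and 2602 in LP, 2028, 2269.9 and 2615 in MaSC and 3128, 2946 and 2897 in ML. AL lay below and ML above all other arrays, so that AL was 3.06-fold below ML (log2 difference -1.61 ± 0.18, adjusted p = 1.6e-05) and 2.22-fold below LP (-1.15 ± 0.18, adjusted p = 0.00033). From ALP to AL it fell 2.08-fold (-1.05 ± 0.18, adjusted p = 0.00073). Ugp2, which makes UDP-glucose, read 4066, 4301 and 4068 in AL and 3256, 2704 and 2999.9 in MaSC, 1.39-fold apart (0.48 ± 0.10, adjusted p = 0.0021). Of its 4 other probe sets, 3 passed in this direction and 1 gave -0.0023. Against LP that last probe set passed as lower in AL (-0.47), while 2 others passed as higher. Galt, which exchanges UDP between glucose and galactose, read 2314, 2329 and 2274 in AL, 2347, 2266 and 2159 in ML and 1649, 1209.5 and 1784 in MaSC. AL exceeded MaSC 1.51-fold (0.59 ± 0.15, adjusted p = 0.0041), though not by the methods' t-test. Gys1, glycogen synthase, varied from 229.7 to 667 and did not pass the F test.

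Of the citrate genes, Cs, citrate synthase, was highest in AL at 12328, 11353 and 11180.1 against 8858 to 10414 elsewhere, 1.22-fold above LP (0.29 ± 0.07, adjusted p = 0.0038). The 2 other Cs probe sets also passed over LP, at 1.15 and 0.32. Idh2, the mitochondrial NADPH-making isocitrate dehydrogenase, was lowest in MaSC at 2366, 1535 and 1471 and highest in ML at 3959, 4022 and 3595, 2.2-fold apart (MaSC minus ML -1.14 ± 0.18, adjusted p = 0.00030). Its 2 probe sets disagreed on AL. The other was highest there and passed for AL over LP and ML (0.92 and 0.88), with MaSC minus ML at -0.48, while the one used gave -0.05 and -0.39 without passing. Idh1, its cytosolic relative, ranged from 2631 to 7699 over all arrays. Its AL arrays, at 5906 to 6159, lay above all those of LP and MaSC, but neither difference passed (adjusted p = 0.43 and 0.072).

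Set against LP, AL differed in 17 of the 35 genes, 12 higher and 5 lower, where 45.5% of all genes passed, 21.3% higher and 24.2% lower. The share was thus near the background, 6 genes differed by at least 2-fold (18.9% of all genes), and the median log2 difference was 0.21 over the 35 genes and -0.03 over all genes. By role, 4 of 5 genes of pyruvate dehydrogenase and its kinases rose, and 3 of 5 of the pentose phosphate pathway rose and 1 fell. None of 4 lactate genes and none of 3 in lower glycolysis passed, although the AL arrays lay above those of LP for Ldhb. Largest after Pdk2, Pfkl and Pfkm were the rises of Pdk1, Gys1 and Taldo1, and the largest falls were those of Pfkfb4, Pgm2, Pfkp, Rpia and Slc2a1. Leaving out 1 array ended the calls for Tkt (any LP or AL array, or ML replicate 1, with adjusted p up to 0.113), Gys1 (any LP or AL array, up to 0.101) and Galt (LP replicate 3, 0.0501). With each array centred on its median, 14 were higher and 3 lower.

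Against ML, AL differed in 19 genes, 13 higher and 6 lower (53.5% of all genes, 28.7% higher and 24.8% lower). By at least 2-fold, 5 differed (26.3%). The largest rises were those of Ldhb, Pdk3, Slc16a1, Pdk4, Pdk1 and Pfkl, and the falls were those of Pfkfb4, Pgm2, Hk2, Pfkfb3, Pkm and Aldoa. Both fructose-2,6-bisphosphate regulators fell and 4 of 5 pyruvate dehydrogenase genes rose. Members had a median log2 difference of 0.04 and all genes of 0.03. The call for Cs was lost without ML replicate 1, ML replicate 3 or AL replicate 1 (adjusted p up to 0.104). With all arrays, its 2 other probe sets passed over ML, at 0.82 and 0.24. After median centring 10 were higher and 8 lower, and Pdha1, Tkt and Cs no longer passed.

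AL and ALP shared genotype, reporter and gate and differed in pregnancy, and the labels do not tell whether they differed in pregnancy alone. The hormone-sensing markers summed to 4952 to 6276 in AL and to 16377 to 24480.1 in ALP. Array batch is not given in the labels. The part of batch or of cell makeup in the differences between AL and ALP was not tested. Comparing AL with ALP gave 17 genes, 10 higher and 7 lower (39.9% of all genes, 18.7% higher and 21.2% lower). By at least 2-fold, 4 differed (17.6%), and the median was 0.05 over the members and -0.02 over all genes. Without ALP replicate 3, the array with the leukocyte markers, the count was again 17, with 10 higher and 7 lower. The genes were not all the same, since the calls for Pfkl, Pdk3 and Slc16a3 were lost without that array. Pdk2, Pdk1, Taldo1, Ldhb, Pfkl and Pgls led the rises, and Slc16a3, Pfkfb4, Pgm2, Pfkp, Hk2 and Pkm the falls. The fall of Slc16a3 (-2.30 ± 0.80, adjusted p = 0.038) was lost without any AL array or ALP replicate 2 or 3, and the difference was -1.49 without ALP replicate 3 and -3.45 without ALP replicate 1. Calls for Pfkl, Aldoa, Pkm, Pdk3 and Pgls were also lost when 1 array was left out (adjusted p up to 0.135, 0.0726, 0.0939, 0.112 and 0.133), in each case for AL replicate 1 among others, and without that array 11 genes passed. With median centring 16 were higher and 5 lower.

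Against MaSC, AL differed in 24 genes, 17 higher and 7 lower (59.4% of all genes, 31.3% higher and 28.1% lower), 8 of them by at least 2-fold (29.4%), with a median log2 difference of 0.35 over the members and 0.05 over all genes. Pdk1, Pdk2, Aldoc, Taldo1, Pgls and Pfkl rose most, and Slc16a3, Pfkfb4, Pgm2, Pfkp, Aldoa and Pgam1 fell most. Calls lost on leaving out 1 array were those for Pfkm (8 arrays, adjusted p up to 0.165), Tpi1 (MaSC replicate 2 or 3, AL replicate 2 or 3, up to 0.113), Pgam1 (MaSC replicate 2, AL replicate 1 or 3, up to 0.0693) and Ldha (MaSC replicate 2 or AL replicate 3, up to 0.0742). Median centring gave 18 higher and 4 lower, without Aldoa, Pgam1 and Ldha.

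**Figure D4:**
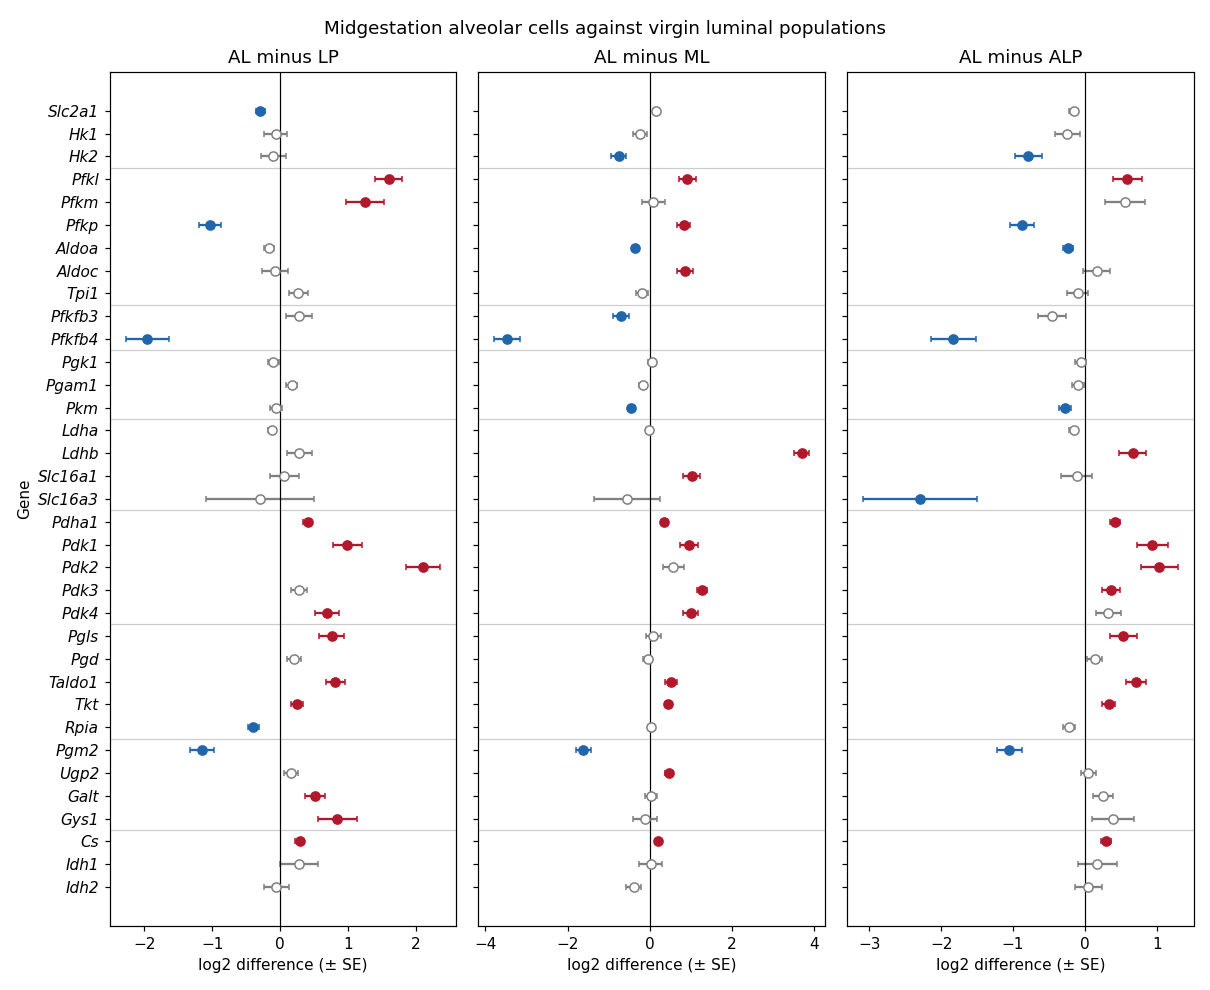
Fitted log2 differences of AL from LP, ML and ALP for the 35 genes, grouped by role, with bars of ±1 SE and with filled points for genes that passed at an adjusted p under 0.05 (red higher in AL, blue lower). Horizontal scales differ between panels. Pfkfb4 and Pgm2 lie to the left, and Pdk1 and Taldo1 to the right, of 0 in all 3 panels.

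Within the virgin luminal lineage, LP and ML differed in 22 genes, 8 higher in LP and 14 higher in ML (49% of all genes, 27.3% higher in LP and 21.7% higher in ML). By at least 2-fold, 5 differed (22.3%). Of 6 upper glycolysis genes, 4 were higher in ML and 2 higher in LP, namely Pfkp (1.85) and Aldoc (0.92). In lower glycolysis 2 of 3 genes were higher in ML, as were both fructose-2,6-bisphosphate regulators. The median difference of LP from ML was -0.25 over the members and 0.04 over all genes. Furthest above ML were Ldhb, Pfkp, Pdk3, Slc16a1, Aldoc and Slc2a1, and the largest differences toward ML were those of Pdk2, Pfkfb4, Pfkm, Pfkfb3, Gys1 and Pfkl. Of these 22 calls 8 were lost when 1 array was left out, namely Hk2 (LP replicate 3), Pfkl (LP replicate 2 or 3, ML replicate 1), Aldoa (any LP array, ML replicate 1 or 2), Tpi1 (LP replicate 2, ML replicate 1), Pgm2 (10 arrays), Ugp2 (LP replicate 1 or 2, ML replicate 2 or 3), Galt (LP replicate 3, ML replicate 1) and Gys1 (ML replicate 1 or 2), with adjusted p of at most 0.0555, 0.0553, 0.107, 0.0706, 0.189, 0.111, 0.0602 and 0.0639. Centring on the median gave 5 higher in LP and 19 higher in ML.

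Basal cells were lower than ML in 15 genes and higher in 7 (59.5% of all genes, 27.1% higher and 32.4% lower), 9 of them by at least 2-fold (27.9%), with a median of -0.29 over the members and -0.07 over all genes. Furthest above ML in MaSC were Ldhb, Slc16a3, Pfkp, Slc16a1, Pdk3 and Slc2a1, and those furthest below ML were Pfkfb4, Pfkfb3, Idh2, Pdk2, Pdk1 and Taldo1. Leaving out 1 array ended the calls for Hk2 (MaSC replicate 2, ML replicate 1 or 2, adjusted p up to 0.0736), Ldha (6 arrays, up to 0.0938), Pdha1 (MaSC replicate 3 or ML replicate 3, up to 0.0636) and Tkt (MaSC replicate 2, ML replicate 1 or 2, up to 0.0671). Median centring gave 5 higher and 21 lower, with the small differences of Slc2a1 and Ldha turned in sign. MaSC and LP differed in 11 genes, 3 higher in MaSC (Slc16a3, Pfkl and Pgam1) and 8 lower (38.9% of all genes, 15.8% higher and 23.1% lower), 2 of them by at least 2-fold (17.6%), led by Aldoc, Pdk1, Idh2, Taldo1, Tkt and Rpia. Its calls for Slc2a1, Pfkl and Ugp2 were lost without LP replicate 2 among others (adjusted p up to 0.0652, 0.0556 and 0.116), and the median was -0.08 over the members and -0.07 over all genes.

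The virgin Wap-Cre marked cells, ALP, differed from LP in 4 genes, Pdk2, Pfkl, Pfkfb3 and Hk2, all higher in ALP (7.54% of all genes, 3.58% higher and 3.95% lower). By at least 2-fold, 2 differed (3.24%). The number fell to 1 without ALP replicate 3 and to 0 without LP replicate 2 or 3, and it was 8 without ALP replicate 1. The median was 0.10 over the members and -0.02 over all genes. ALP differed from ML in 11 genes, 9 higher and 2 lower (36.7% of all genes, 21.1% higher and 15.6% lower), 4 of them by at least 2-fold (16.7%), led by Ldhb, Pfkp and Slc16a1 above ML and Pfkfb4 and Pgm2 below. It differed from MaSC in 11, all higher in ALP (38.4% of all genes, 21.7% higher and 16.7% lower), 2 of them by at least 2-fold (16%), led by Aldoc, Pfkfb3, Pdk1, Taldo1 and Idh2. Without ALP replicate 3 these counts were 13 and 10. None of the 11 calls against MaSC held under every setting tried. The methods' t-test gave 0 after adjustment and 9 before it, and a fit of only these 2 populations gave 2. Against ML the corresponding counts were 3, 15 and 6, and the calls for Ldhb and Pfkp held under every setting. Centring on the median left 4 genes higher and 21 lower against ML and quantile normalization 8 and 8, so the direction of the smaller differences from ML depended on the scaling, and against MaSC centring left 5 higher and 1 lower.

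Calls lost on leaving out 1 array were, against ML, those for Aldoc (ML replicate 2 or ALP replicate 1, adjusted p up to 0.0579), Rpia (10 arrays, up to 0.137) and Pgm2 (any ML array, ALP replicate 1 or 2, up to 0.111). Against MaSC they were those for Hk2, Tpi1, Pgls and Pgd (up to 0.0934, 0.0687, 0.195 and 0.113), each without MaSC replicate 2, MaSC replicate 3 or ALP replicate 2, among others for Hk2, Pgls and Pgd. Over all 10 comparisons, 118 of 158 calls passed whichever single array was left out, and 79 passed under every setting tried.

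Genes next to the list in the same pathways were read in the same fit, to be set against the shares of all genes that were higher and lower in AL, 21.3% and 24.2% against LP, 28.7% and 24.8% against ML, 18.7% and 21.2% against ALP and 31.3% and 28.1% against MaSC. Of 19 measured genes that carry pyruvate into and around the citric acid cycle, 13 were higher and 1 lower in AL than in LP, 8 higher and 3 lower than in ML, 11 higher and none lower than in ALP, and 13 higher and none lower than in MaSC. The gene lower than in LP was the pyruvate dehydrogenase phosphatase Pdp1 (-0.60), a call lost on leaving out any 1 of 11 arrays (adjusted p up to 0.151), and those lower than in ML were Ogdh, Pck2 and Pdp2. Dlat, a core subunit of pyruvate dehydrogenase, read 2133, 2084 and 1974 in AL and 986 to 1255 on all other arrays (0.92 ± 0.10, adjusted p = 3.8e-05 over LP). Pdhb, which pairs with Pdha1, rose by 0.64 over LP, Suclg2 by 0.85 and Aco1 by 0.48. In the list of NADPH and citrate use, 4 of 5 were higher in AL than in LP, with Acaca (1.21) and Fasn (1.27) of fatty acid synthesis, the citrate carrier Slc25a1 (1.23) and Acly (0.30), which splits citrate. Only 2 of the 5 were higher in AL than in ML, where the median log2 difference was 0.22 against 1.21 for LP. Against ALP and MaSC 4 were higher in each case, and none was lower in any of these comparisons.

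Few other glycolytic and sugar entry genes differed between AL and LP. None of 13 was higher in AL than in LP and 3 were lower (45.5% of all genes passed, 21.3% higher and 24.2% lower), led by the enolase Eno2, which read 538, 448 and 505 in AL and 1825, 2299 and 2478 in LP (-2.14 ± 0.22, adjusted p = 2.2e-05), while the falls of Slc2a12 and Adpgk were lost without LP replicate 1 among others (adjusted p up to 0.145 and 0.0844). After median centring 2 were higher and 2 lower, and leaving out 1 array gave 0 to 1 higher and 1 to 4 lower. Against ML, 1 of 13 was higher in AL, the sodium-driven glucose carrier Slc5a1 (1.93), and 6 were lower, among them Tigar (-2.73), which lowers fructose-2,6-bisphosphate. Slc2a3, a high-affinity glucose transporter, read 4345, 1417 and 576 in ML and 1958, 1601 and 1557 in MaSC. It read 107, 98.3 and 68.5 in LP and 84.9, 169 and 131 in AL (-4.09 ± 0.68, adjusted p = 0.00056 for LP minus ML). Slc2a4, the insulin-responsive transporter, was high in MaSC alone at 1395, 1273 and 1367 against at most 349 on the other arrays, 3.32 ± 0.43, adjusted p = 0.00016 over LP.

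Of 14 measured genes of sugar phosphates, galactose, glycogen and lactose, 4 were higher and 2 lower in AL than in LP, beside 21.3% and 24.2% of all genes, and after median centring 7 were higher and 2 lower. Pygb, a glycogen phosphorylase, rose by 1.82, Gyg, the primer of glycogen, by 0.88 and the phosphoglucomutase Pgm1 by 0.90, while Ugdh, which draws UDP-glucose off to glucuronate, and Uap1, of UDP-N-acetylglucosamine synthesis, were lower (-0.63 and -0.59). Among 12 regulators 3 were higher in AL than in LP and none lower, a share under that of all genes (45.5%): Esrra (1.82), a nuclear receptor of mitochondrial genes, Srebf1 (1.11), a driver of lipid synthesis, and the glucose-responsive factor Mlxipl (1.21), the last lost without LP replicate 1 or AL replicate 2 (adjusted p up to 0.069). Of 12 hypoxia-responsive genes outside glycolysis, again fewer than the 45.5% of all genes passed. Ankrd37 (2.83) was the 1 gene higher in AL than in LP, and 2 were lower, Car9 (-3.70) and P4ha1 (-1.34). The call for P4ha1 was lost without any AL array or LP replicate 1 or 2 (up to 0.0748).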

How the data were processed

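RNA of 5 sorted populations, 3 samples each, was extracted with RNeasy columns, amplified with the NuGEN Ovation V2 system and hybridised to Affymetrix Mouse Genome 430 2.0 arrays. The authors deposited 1 intensity per probe set and array, normalized between arrays with dChip and on a linear scale. For dChip, version and expression model were not given in the sources used. Samples were grouped by their labels. The deposited intensity table held 45101 probe sets, of which 34945 were annotated to 1 gene symbol, 932 to several and 9160 to none, with 64 controls. Values below 1 (659 of them 0) were set to 1 and log2 taken.

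Each gene was read from its brightest probe set by mean log2 intensity, and genes above the array median on at least 3 of 15 arrays were tested with lmFit and eBayes in limma 3.58.1 (R 4.3.3), two-sided, with 1 mean per population. The script was tested on simulated data. Coordinates and promoter sequences are RefSeq's on GRCm38.p6. The number of arrays limits the precision. Alternatives were quantile normalization, median centring, an added 16, a floor of 32, other filters, averaging probe sets, array weights, 2 populations only, a replicate block, a 2-fold rule, the methods' t-test and leaving out each array. The fit of the wildtype virgin arrays without a block was added after seeing the data.

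The genes and lists were chosen with earlier results of these data known. Each member could be named. By the rule, array values were due for about 20 that passed the F test, in every role where one passed, and those of most other members that passed were added after their values were seen. Up to 6 members in each direction were named per comparison by size of the log2 difference, beside those whose calls were lost with an array left out or under another setting. From other lists up to 4 genes per comparison were named by the size of limma's t statistic, and beyond these, where a count was 5 or fewer, its genes after their values were seen.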

Additional observations from a re-analysis of the deposited data

How the results depend on the processing

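Directions held in all of the 158 calls under an added 16, a floor of 32 and a filter of at least 6 arrays, which also kept every call. Quantile normalization kept 156 calls, array weights 157, averaging probe sets 152, no filter 136, only the 2 populations compared 124 and the methods' t-test with adjustment 106. The cause of these changes was not tested. Median centring kept 130 and turned 5 small differences: Aldoa, AL vs ALP, to 0.040, Slc2a1, MaSC vs ML, to -0.0082, Ldha, MaSC vs ML, to -0.070, Slc2a1, ALP vs ML, to -0.10, and Rpia, ALP vs ML, to -0.17. It moved the median difference of all genes by over 0.1 on the log2 scale in 8 comparisons: AL vs LP by 0.101, AL vs ML by -0.14, AL vs ALP by 0.27, LP vs ML by -0.24, MaSC vs ML by -0.23, ALP vs LP by -0.17, ALP vs ML by -0.41 and ALP vs MaSC by -0.18. Quantile normalization did so in ALP vs ML, by -0.12.

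Counts of members called that moved by over 1.5 times were mostly those involving ALP. Median centring gave 25 for ALP vs ML and 6 for ALP vs MaSC. Without a filter there were 11 for AL vs ALP and 2 for ALP vs LP. Array weights gave 26 for AL vs ALP, 14 for ALP vs LP, 18 for ALP vs ML and 20 for ALP vs MaSC. With only the 2 populations compared there were 0 for ALP vs LP, 6 for ALP vs ML and 2 for ALP vs MaSC. The methods' t-test with adjustment gave 11 for AL vs ALP, 0 for ALP vs LP, 3 for ALP vs ML and 0 for ALP vs MaSC. Without adjustment it gave 18 for MaSC vs LP, and for the 2 counts of 0, ALP vs LP and ALP vs MaSC, 6 and 9, which lie within 1.5 times the counts reported. Requiring at least 2-fold as well left 6 for AL vs LP, 5 for AL vs ML, 4 for AL vs ALP, 8 for AL vs MaSC, 5 for LP vs ML, 2 for MaSC vs LP, 9 for MaSC vs ML, 2 for ALP vs LP, 4 for ALP vs ML and 2 for ALP vs MaSC.

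Leaving out 1 array gave 14 to 18 for AL vs LP, 18 to 20 for AL vs ML, 11 to 18 for AL vs ALP, 20 to 25 for AL vs MaSC, 16 to 23 for LP vs ML, 8 to 13 for MaSC vs LP, 19 to 25 for MaSC vs ML, 0 to 8 for ALP vs LP, 8 to 13 for ALP vs ML and 7 to 13 for ALP vs MaSC, where the 7 came without MaSC replicate 2 or ALP replicate 2.

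Replicate numbers are shared by the populations, but the labels tie no number to a suspension. Deviations of same-numbered MaSC, LP and ML arrays correlated at -0.01 to 0.17, and those of differently numbered ones at -0.13 to 0.08. With the replicate number as a block 144 of the 158 calls passed, and the count was 1 for ALP vs LP, 14 for AL vs ALP, 16 for AL vs LP, 19 for AL vs ML, 24 for AL vs MaSC, 20 for LP vs ML, 10 for MaSC vs LP, 22 for MaSC vs ML, 10 for ALP vs ML and 9 for ALP vs MaSC. In the wildtype virgin arrays alone the block gave 20 for LP vs ML, 9 for MaSC vs LP and 19 for MaSC vs ML, and the fit without it 22, 10 and 22. Pfkfb4 in AL, and Slc16a3 in AL, in LP and on part of the ML and ALP arrays, lay under the array medians, where small intensities limit the fold.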
